A study of Oryctolagus cuniculus with 6 samples.

Results

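The genes described here carry cholesterol through the cell, and were followed in retina samples of rabbits with proliferative vitreoretinopathy (PVR) and of normal rabbits. They comprise the enzymes that make cholesterol, the SREBP system that sets their transcription, and the receptors and transporters that take sterols up or send them out. Of 37 genes listed by symbol, 33 were found among the 28788 genes of the deposited tables, 15 of them synthesis enzymes and 18 with other roles. IDI1, CYP51A1, DHCR7 and CYP46A1 were not found by symbol and were left out of every count of members. All 33 passed the filter on low counts, with between 58 and 17253 reads in each sample.

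The study compared 3 normal retina samples with 3 PVR retina samples by RNA sequencing. In the PVR group, the sclera was punctured, some vitreous was aspirated and platelet-rich plasma was injected into the vitreous cavity. The rabbits were adults. The strain, the exact age, the time from injection to collection and any sham procedure in the normal group are not given in the sources used here. Nothing in these sources says that the 3 samples of a group came from separate animals, so the p-values measure the spread between samples, which may be technical.

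Cholesterol is made from acetyl-CoA through mevalonate, squalene and lanosterol. When sterols run low in the endoplasmic reticulum, SCAP escorts the SREBP proteins to the Golgi, where they are cleaved and released to switch on the synthesis genes. When sterols or oxysterols are plentiful, the INSIG proteins hold SCAP back, and the LXR receptors turn on efflux genes such as ABCA1. In the retina, Mueller glia and other cells make cholesterol locally, and APOE particles move it between cells.

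The samples held between 31904593 and 43035080 counted reads. Values are given as CPM, read counts scaled to a common library size after TMM adjustment, which compare 1 gene between samples. Others are given as the FPKM deposited by the authors, which are divided by gene length and compare different genes. The FPKM are scaled to the total counts of each sample without TMM adjustment, so FPKM differences between the groups lack it. Rod genes fitted the labelled tissue, with a summed level of 41562 CPM or more in each normal sample, and none of the markers examined was at 0 in all samples. Normal replicate 2 stood apart in lens genes, with a summed level of 32732 CPM against 15.6 and 12.2 CPM in the other normal samples. The PVR samples, at 300.2, 261.6 and 300.0 CPM, lay between these levels. Over all 18697 genes tested with edgeR's quasi-likelihood test, 1.7% had a Benjamini-Hochberg adjusted p under 0.05, 1.09% higher and 0.615% lower in PVR. These were 318 genes, against 76 without normal replicate 2. The number also moved without samples low in lens genes, to 98 without normal replicate 1 and 557 without normal replicate 3. Over all fits with 1 sample left out it ranged from 22 to 650.

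Among the 33 members, 1 fell in PVR by this criterion, INSIG1, and none rose. None had a log2 fold change beyond 1 in addition, the fold that the study's methods require, against 0.69% higher and 0.316% lower among all genes tested. At an unadjusted p under 0.05, 16 of the 33 members were lower (48.5%) and 1 was higher, against 9.94% lower and 11.3% higher among all genes tested. DESeq2 put 7 members past an adjusted p of 0.05, 6 lower and 1 higher, but it also called 8.75% of the 20052 genes to which it gave an adjusted p, 3.33% lower and 5.43% higher. With limma-voom 1 member passed, lower in PVR, against 1.15% of all genes, 0.396% lower and 0.754% higher. In 17 members every PVR sample was below every normal sample, against 14.6% of all genes, and in 1 member every PVR sample was above, against 13.4%. The median log2 fold change of the members was -0.30, and that of all genes tested was -0.01. The members were chosen by function and share regulators and cell types, so they do not count as independent observations.

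**Figure D1:**
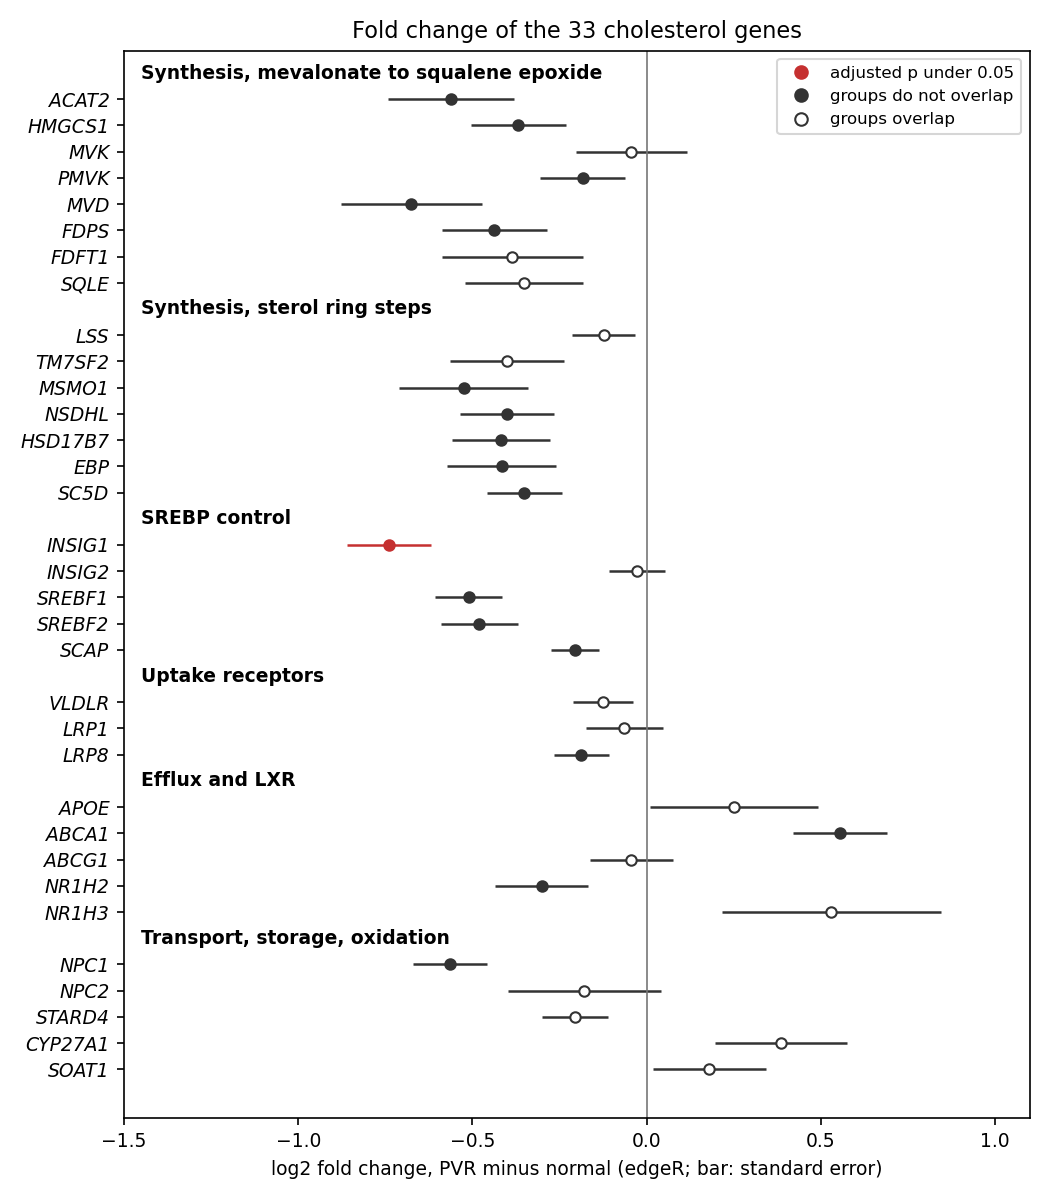
Log2 fold change of each of the 33 members (x axis, PVR minus normal, edgeR), grouped by role; bars are standard errors, filled points mark genes whose 3 PVR and 3 normal samples do not overlap, and red marks an adjusted p under 0.05. INSIG1 is the red point at -0.74, all 15 synthesis enzymes lie left of 0, and ABCA1 lies at 0.56 on the other side.

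The 15 synthesis enzymes all had a fitted log2 fold change below 0, from -0.04 for MVK to -0.68 for MVD, with a median of -0.40. Of the 15, MVK alone changed sign in other settings. Its value was 0.027 on log2(FPKM + 1), which carries no TMM adjustment, and 0.010 with thinned counts. Among all genes tested, 51.1% had a fitted value below 0. None of the 15 passed an adjusted p of 0.05 with edgeR, which called 0.615% of all genes lower. An unadjusted p under 0.05 was found for 10, all lower, against 9.94% lower among all genes tested. With DESeq2, 2 of the 15 passed, ACAT2 and MVD, both lower, where it called 3.33% of all genes lower. With limma-voom 0 passed, where it called 0.396% of all genes lower. In 10 of the 15 the PVR samples were all below the normal samples, against 14.6% of all genes.

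The enzymes of the early steps lead from acetyl-CoA to squalene epoxide. ACAT2, the thiolase that joins acetyl-CoA units in the cytosol, stood at 26.7, 26.3 and 36.8 CPM in the normal samples and at 21.5, 16.7 and 22.7 CPM in the PVR samples. The groups did not overlap. The mean was 32.2% lower in PVR, and the log2 fold change was -0.56 ± 0.18 (SE, edgeR unadjusted p = 0.0159 and adjusted p = 0.147). HMGCS1, the HMG-CoA synthase and per length (FPKM) the most abundant synthesis enzyme among the members, was at 151.6, 151.5 and 160.5 CPM in the normal samples and at 116.3, 97.9 and 145.0 CPM in PVR. PVR replicate 3 was close to the normal samples and PVR replicate 2 farthest from them. The log2 fold change was -0.37 ± 0.14 (SE, edgeR adjusted p = 0.191), and it depended on single PVR samples. It was -0.53 without PVR replicate 3 (adjusted p = 0.0448 from edgeR), -0.24 without PVR replicate 2 (adjusted p = 0.359) and -0.35 without PVR replicate 1 (adjusted p = 0.442).

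MVD, which decarboxylates mevalonate diphosphate, had the most negative value of the synthesis enzymes. Its level was 7.5, 9.8 and 7.1 CPM in the normal samples and 5.8, 4.5 and 5.0 CPM in PVR, a mean difference of 37.4%. Its log2 fold change was -0.68 ± 0.20 (SE, edgeR adjusted p = 0.129). MVK and PMVK, the kinases that act on mevalonate before MVD, differed less. MVK overlapped between the groups, with means of 16.8 ± 2.55 CPM (SD, n = 3) in normal and 16.3 ± 1.68 CPM (SD, n = 3) in PVR. PMVK had means of 16.7 ± 0.746 and 14.7 ± 0.45 CPM (SD, n = 3) and a log2 fold change of -0.18, with every PVR sample below every normal one.

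FDPS, which builds farnesyl diphosphate, was at 20.3, 20.1 and 19.6 CPM in the normal samples and at 13.9, 12.8 and 17.5 CPM in PVR. The normal samples lay within 1 CPM of each other and above all PVR samples, with a log2 fold change of -0.44 ± 0.15 (SE, edgeR adjusted p = 0.167). FDFT1, the squalene synthase, was at 58.1, 63.5 and 83.6 CPM in the normal samples and at 54.1, 38.9 and 64.0 CPM in PVR. Its groups overlapped, and normal replicate 3 was far above the other normal samples. SQLE, the squalene epoxidase and a control point of the later pathway, overlapped as well, at 44.5, 42.0 and 46.9 CPM in normal and 35.7, 26.2 and 42.5 CPM in PVR.

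**Figure D2:**
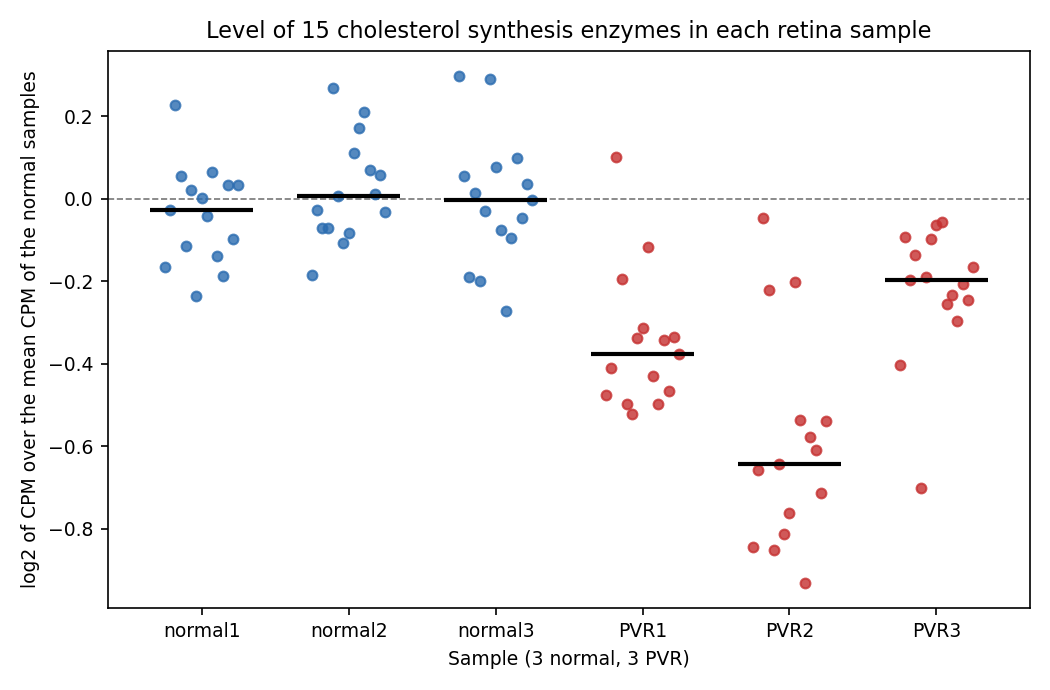
Level of the 15 synthesis enzymes in each of the 6 samples, as log2 of the CPM over the mean of the normal samples (y axis); each point is 1 enzyme and each black bar the median of a sample. The medians are -0.03, 0.01 and 0.00 in the normal samples, against -0.38, -0.64 and -0.20 in PVR replicates 1, 2 and 3.

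The sterol ring steps turn squalene epoxide into lanosterol and then into cholesterol. LSS, which closes the ring to lanosterol, differed least among them, with 42.4, 47.1 and 41.4 CPM in the normal samples and 40.2, 37.9 and 41.9 CPM in PVR. The groups overlapped, and the log2 fold change was -0.12 (edgeR adjusted p = 0.461). MSMO1, the oxidase that starts the removal of the methyl groups at carbon C4 of the ring, was at 41.0, 52.2 and 42.2 CPM in the normal samples and at 32.0, 23.7 and 38.4 CPM in PVR. All PVR samples were lower, the mean by 30.5%, with a log2 fold change of -0.52 ± 0.19 (SE, edgeR adjusted p = 0.172). NSDHL and HSD17B7, which act in the same demethylation, had log2 fold changes of -0.40 and -0.42, and the isomerase EBP had -0.42. In these 3 genes too the groups did not overlap. SC5D, the sterol desaturase, was at 53.7, 51.3 and 52.3 CPM in the normal samples and at 40.4, 36.1 and 46.8 CPM in PVR. Its log2 fold change of -0.35 had a small standard error of 0.11, with an adjusted p of 0.133 from edgeR. TM7SF2, a sterol reductase, overlapped between the groups by a narrow margin, since normal replicate 3 at 14.2 CPM was just below PVR replicate 3 at 14.3 CPM. FDPS and HSD17B7 have near copies in some mammalian genomes, and copies in the rabbit were not checked, so their counts are uncertain.

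The PVR samples kept nearly the same order across the enzymes. PVR replicate 2 was the lowest of all 6 samples for 14 of the 15 enzymes, and PVR replicate 3 was the highest of the PVR samples for 13. The summed level was 564.0, 584.5 and 605.0 CPM in the normal samples and 457.0, 380.7 and 524.4 CPM in PVR replicates 1, 2 and 3. As a share of the normal mean, the PVR samples stood at 78.2%, 65.1% and 89.7%. PVR replicates 1 and 2 were also the shallowest libraries, and PVR replicate 3 the deepest. When reads were drawn down to the total of the smallest library, the median of the enzymes was -0.41, against -0.40 before. Fold changes were already scaled to library size, so this step bears on counting error only and cannot show an effect of library quality. Without normal replicate 2, which had the highest lens sum, the median was -0.38.

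Summed levels of some cell type markers also stood apart between the groups, while those of the ganglion cell, reactive glia and lens genes overlapped. The summed level of 8 rod genes in PVR replicates 1, 2 and 3 was 77.6%, 63.9% and 87.4% of the normal mean, and none of the 8 passed the test. The sum of 8 Mueller glia genes was 72.4%, 63.6% and 75.8%, with 5 fitted values below 0 and 3 above. Of these 8, 2 fell, against 0.615% of all genes tested. The number that fell was 1 without normal replicate 1, normal replicate 2 or PVR replicate 2 and 0 without PVR replicate 1. GLUL, the glutamine synthetase and the largest part of the sum, was at 819.5, 929.4 and 1102 CPM in normal and at 463.6, 419.3 and 437.8 CPM in PVR. The sum of 7 ganglion cell genes was 86.6%, 66.2% and 107.4%, with none past the test. In all 3 lists PVR replicate 2 was lowest and PVR replicate 3 highest of the PVR samples, as for the synthesis enzymes. The oligodendrocyte sum had this order too, as did the reactive glia sum, at 115.8%, 111.5% and 115.9% of the normal mean. PVR replicate 1 was instead the highest in the pigment epithelium, macrophage and microglia, endothelial and lens sums, and the lowest in the platelet sum. The overlapping reactive glia sum was mostly VIM, at 834.2, 1305 and 914.4 CPM in normal and 910.2, 848.0 and 955.9 CPM in PVR. Of the 5 reactive glia genes tested, 3 had every PVR sample above every normal sample, against 13.4% of all genes, and 2 had fitted values below 0. Of the 5, 1 rose, against 1.09% of all genes, and 0 with any 1 sample left out. The 11 oligodendrocyte genes, which belong to the cells that form myelin, all had fitted values below 0, against 51.1% of all genes tested. Of the 11, 4 fell, against 0.615% of all genes. The number that fell rested on single samples. It was 0 without normal replicate 2 or PVR replicate 1, 1 without PVR replicate 2, 2 without PVR replicate 3 and 9 without normal replicate 1. Their sum ranged from 257.0 to 1259 CPM in the normal samples and from 143.2 to 157.3 CPM in PVR. Normal replicate 3, with the highest oligodendrocyte sum, also had the highest ACAT2 and FDFT1. Each normal sample was the highest for 5 of the 15 enzymes, and normal replicate 3 was the lowest normal sample for 6. Without normal replicate 3 the median of the synthesis enzymes was -0.35, with all 15 values below 0. That fit leaves the oligodendrocyte difference in place, since normal replicates 1 and 2, at 257.0 and 616.5 CPM, were also above all PVR samples. The 9 macrophage and microglia genes found all had values above 0. Of the 9, 1 was past the test with or without any single sample, where 1.09% of all genes were higher with all samples. Their sum ranged from 27.6 to 47.6 CPM in normal and from 102.3 to 110.7 CPM in PVR. The sum of the pigment epithelium genes ranged from 417.1 to 543.8 CPM in normal and from 316.4 to 333.8 CPM in PVR. Of the 7 tested, 2 fell, against 0.615% of all genes, while 2 others, BEST1 and SLC6A20, had fitted values above 0. None fell with 1 sample left out, except 2 without normal replicate 3. The endothelial sum was 113.4%, 110.0% and 110.4% of the normal mean in PVR replicates 1 to 3. Of its 8 genes, 5 had fitted values below 0 and 3 above. Of the 8, 2 fell, but 0 without PVR replicate 1. The part of these markers in the level of the cholesterol genes was not tested. In RNA from whole tissue, fewer cells of a type and less RNA per cell cannot be told apart.

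**Figure D3:**
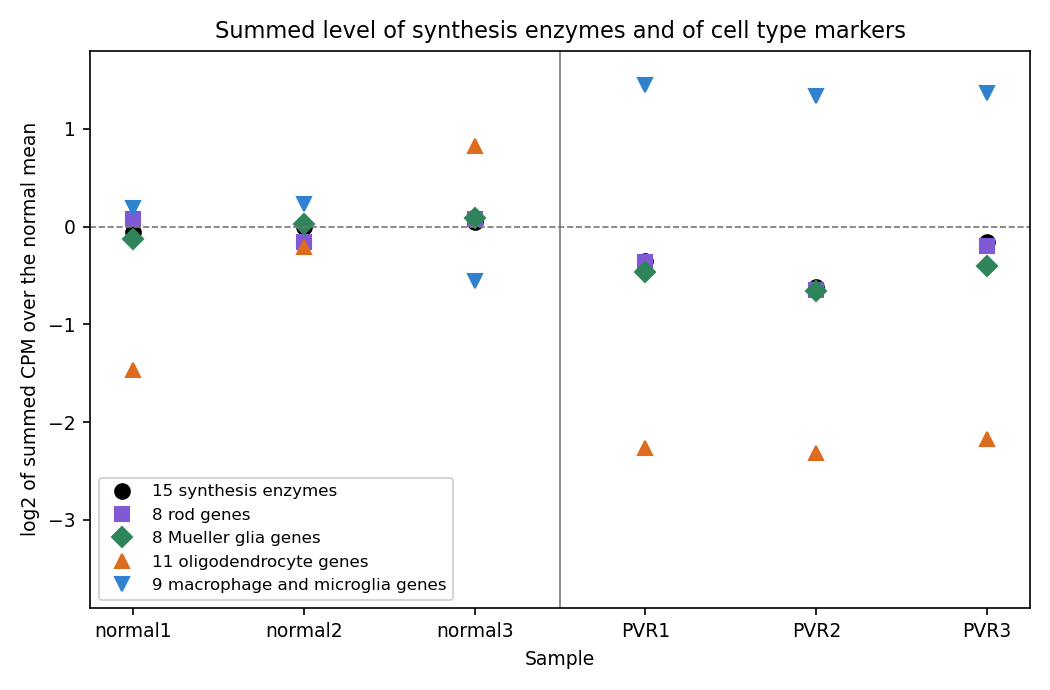
Summed CPM of the 15 synthesis enzymes and of 4 lists of cell type markers in each sample, as log2 of the ratio to the normal mean (y axis); each symbol is 1 list. In the PVR samples the synthesis enzymes lie at -0.35, -0.62 and -0.16 and the rod genes at -0.37, -0.65 and -0.19, while the oligodendrocyte genes lie below -2 and the macrophage and microglia genes above 1.

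The SREBP control genes held the member that passed the test. INSIG1, which retains the SCAP and SREBP complex and is itself a target of SREBP, was at 75.9, 93.1 and 83.2 CPM in the normal samples and at 50.8, 43.5 and 56.9 CPM in PVR. The groups lay well apart, and the mean fell by 40.1%, from 84.1 ± 8.63 to 50.4 ± 6.69 CPM (SD, n = 3). The log2 fold change was -0.74 ± 0.12 (SE, edgeR adjusted p = 0.0385), which ranked 184 among all genes by p. The log2 fold change stayed between -0.84 and -0.64 in the 16 other settings tried, and 11 of them kept the call, with 2.66e-05 under DESeq2. The call was lost with 1 sample left out in 4 cases, with an adjusted p of 0.0751 without normal replicate 1, 0.13 without normal replicate 2, 0.223 without PVR replicate 1 and 0.0797 without PVR replicate 2.

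INSIG2, the other INSIG gene, whose transcription does not depend on SREBP in the same way, overlapped between the groups. It was at 62.5, 55.9 and 55.7 CPM in the normal samples and at 56.1, 55.2 and 59.5 CPM in PVR. Its log2 fold change was -0.03 (standard error 0.08), a value whose sign changed under upper-quartile factors and on the FPKM scale. The ratio of INSIG1 to INSIG2 in FPKM was 1.13, 1.55 and 1.39 in normal replicates 1 to 3, against 0.842, 0.734 and 0.89 in PVR. INSIG1 was thus the more abundant of the pair in every normal sample and the less abundant in every PVR sample. The mean log2 ratio differed by -0.72 (two-sided exact permutation test, p = 0.1, the smallest that 3 samples against 3 allow, and 0.2 adjusted over the 4 pairs compared).

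SREBF1, whose protein acts mainly on fatty acid genes, was at 120.1, 123.6 and 98.8 CPM in the normal samples and at 80.6, 79.2 and 80.6 CPM in PVR. The PVR samples were nearly equal and all below the normal samples. Its log2 fold change was -0.51 ± 0.10 (SE, edgeR adjusted p = 0.0521). It passed in 4 of the 16 other settings, over which the adjusted p ranged from 0.00115 to 0.258, and was 0.0106 without normal replicate 3. SREBF2, whose protein acts mainly on sterol synthesis, was at 139.0, 136.8 and 141.4 CPM in the normal samples and at 96.1, 87.0 and 115.9 CPM in PVR. Here the normal samples were nearly equal and the PVR samples spread in the order seen for the synthesis enzymes. The log2 fold change was -0.48 ± 0.11 (SE, edgeR adjusted p = 0.0773), and the adjusted p was 0.0228 without PVR replicate 3 and ranged from 0.00647 to 0.301 over all other settings. The ratio of SREBF1 to SREBF2 in FPKM differed by -0.01 on the log2 scale (two-sided exact permutation test, p = 0.9, and 0.9 adjusted over the 4 pairs), with SDs of 0.20 in both groups. SCAP, the escort protein, had means of 118.0 ± 1.71 CPM in normal and 102.4 ± 4.98 CPM in PVR (SD, n = 3). Its log2 fold change was -0.21 ± 0.07 (SE, edgeR adjusted p = 0.161), and the groups did not overlap.

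**Figure D4:**
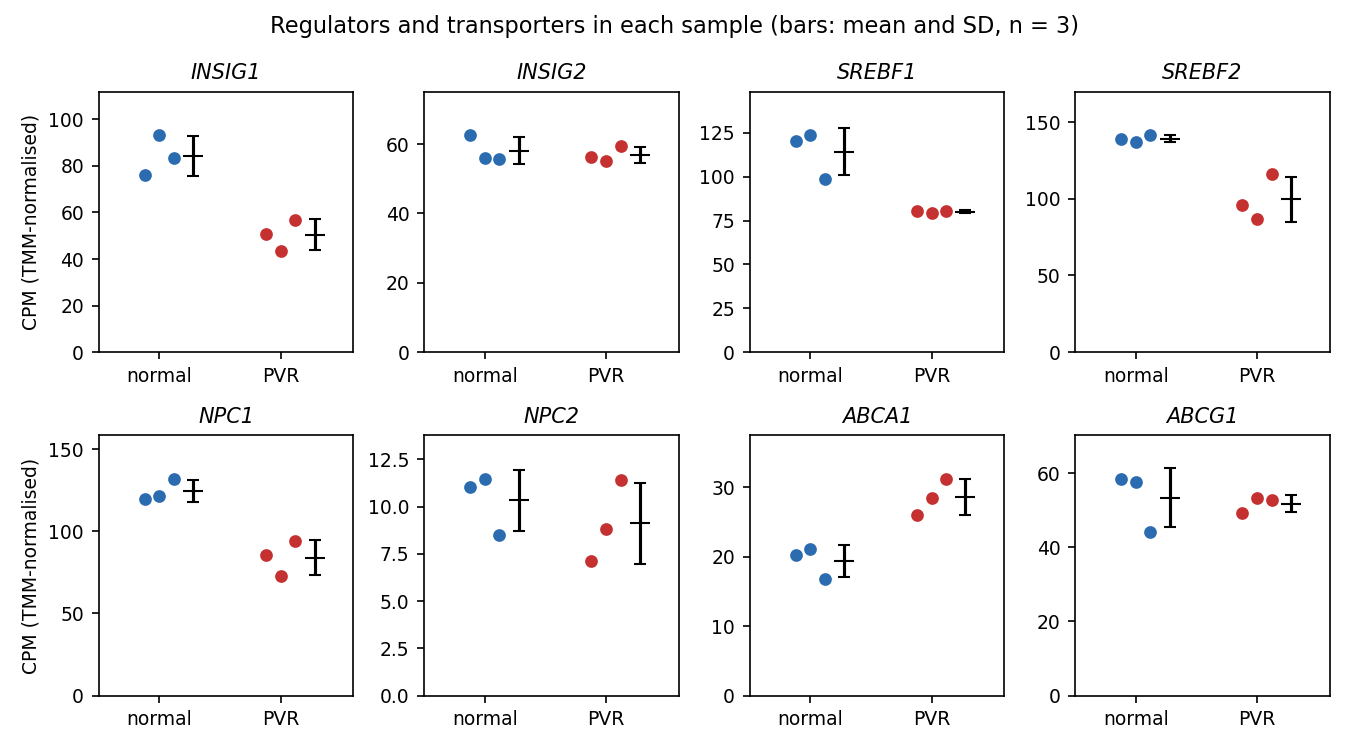
CPM of 4 pairs of members in each of the 3 normal (blue) and 3 PVR (red) samples, with the mean and SD of each group (y axes start at 0). INSIG1, SREBF1, SREBF2 and NPC1 have all PVR samples below the normal samples, ABCA1 has them above, and INSIG2, NPC2 and ABCG1 overlap.

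The uptake receptors among the members were abundant and differed little. VLDLR, a lipoprotein receptor that also binds reelin, had means of 207.4 ± 13.2 CPM in normal and 190.1 ± 12.1 CPM in PVR (SD, n = 3), with overlapping groups. LRP1, a large endocytic receptor for APOE particles among many ligands, had means of 390.9 ± 41.2 and 373.8 ± 27.4 CPM (SD, n = 3) and a log2 fold change of -0.06 that changed sign on the FPKM scale. LRP8, the second reelin receptor, was at 135.0, 149.0 and 138.7 CPM in normal and at 116.0, 128.7 and 126.7 CPM in PVR. Its PVR samples were all lower, with a log2 fold change of -0.19 ± 0.08 (SE, edgeR adjusted p = 0.226).

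The 5 efflux and LXR genes were mixed in sign, with 3 fitted values above 0, 2 below and none past the edgeR test. ABCA1, the transporter that loads cholesterol onto apolipoproteins, was at 20.3, 21.2 and 16.8 CPM in the normal samples and at 26.02, 28.5 and 31.2 CPM in PVR. It was the 1 member with all PVR samples above the normal samples, with a log2 fold change of 0.56 ± 0.14 (SE, edgeR unadjusted p = 0.0039 and adjusted p = 0.0869). It passed with DESeq2 alone among the 16 other settings, at an adjusted p of 0.00766, and the values ranged up to 0.272. ABCG1, a transporter that passes cholesterol to lipoprotein particles, overlapped between the groups, with means of 53.4 ± 8.02 and 51.8 ± 2.19 CPM (SD, n = 3) and a log2 fold change of -0.04 that changed sign on the FPKM scale. The ratio of ABCA1 to ABCG1 in FPKM was 0.11, 0.117 and 0.121 in normal replicates 1 to 3, against 0.168, 0.17 and 0.188 in PVR. The mean log2 ratio was higher by 0.59 in PVR (two-sided exact permutation test, p = 0.1, the smallest possible, and 0.2 adjusted over the 4 pairs).

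APOE, the apolipoprotein that glia secrete, was the most abundant member per length, with an FPKM of 68.5 ± 12.2 in normal and 85.3 ± 25.9 in PVR (SD, n = 3). Its PVR samples were widely spread, at 108.0, 66.2 and 128.7 CPM, and PVR replicate 2 was below all normal samples, which had 67.7, 92.2 and 94.6 CPM. The log2 fold change of 0.25 ± 0.24 (SE, edgeR adjusted p = 0.572) moved between 0.04 and 0.48 with single samples left out. The LXR receptors, which sense oxysterols, stood far apart in level. NR1H2, the widely expressed form, had an FPKM of 11.5 ± 0.312 in normal and 9.8 ± 1.2 in PVR (SD, n = 3). All its PVR samples were lower, with a log2 fold change of -0.30 ± 0.13 (SE, edgeR adjusted p = 0.248). NR1H3, the form abundant in macrophages and liver, was the least abundant member, with an FPKM of 0.657 ± 0.118 in normal and 0.999 ± 0.267 in PVR (SD, n = 3). It was counted with 58, 85 and 65 reads in normal and with 106, 62 and 114 reads in PVR, and the groups overlapped in CPM. Its log2 fold change of 0.53 had a standard error of 0.32.

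The last members move, store or oxidise cholesterol. NPC1, the lysosomal membrane protein that releases cholesterol from endocytosed particles, was at 119.8, 121.2 and 131.9 CPM in the normal samples and at 85.4, 72.5 and 94.1 CPM in PVR. The groups lay apart. The mean was 32.4% lower in PVR, and the log2 fold change was -0.57 ± 0.11 (SE, edgeR adjusted p = 0.0516). It passed in 4 of the 16 other settings, with an adjusted p of 0.0295 without PVR replicate 3 and a range from 0.000644 to 0.25. NPC2, its soluble partner, overlapped, at 11.03, 11.5 and 8.5 CPM in normal and 7.1, 8.8 and 11.4 CPM in PVR, where replicate 3 reached the level of normal replicate 2. The ratio of NPC1 to NPC2 differed by -0.38 on the log2 scale with SDs of 0.31 in both groups (two-sided exact permutation test, p = 0.3, and 0.4 adjusted over the 4 pairs).

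STARD4, a carrier of free sterol in the cytosol, had means of 43.9 ± 2.44 and 38.1 ± 2.82 CPM (SD, n = 3) and overlapped by 1 sample in each group, with normal replicate 3 at 41.1 CPM and PVR replicate 3 at 41.3 CPM. CYP27A1, a mitochondrial enzyme that oxidises the side chain of cholesterol, was at 11.5, 13.5 and 9.6 CPM in normal and at 14.4, 17.9 and 13.0 CPM in PVR. The groups overlapped by PVR replicate 3, with a log2 fold change of 0.39 ± 0.19 (SE, edgeR adjusted p = 0.287). SOAT1, which esterifies cholesterol for storage, was low at an FPKM of 1.08 ± 0.145 in normal and 1.29 ± 0.0415 in PVR (SD, n = 3), and its groups overlapped.

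**Figure D5:**
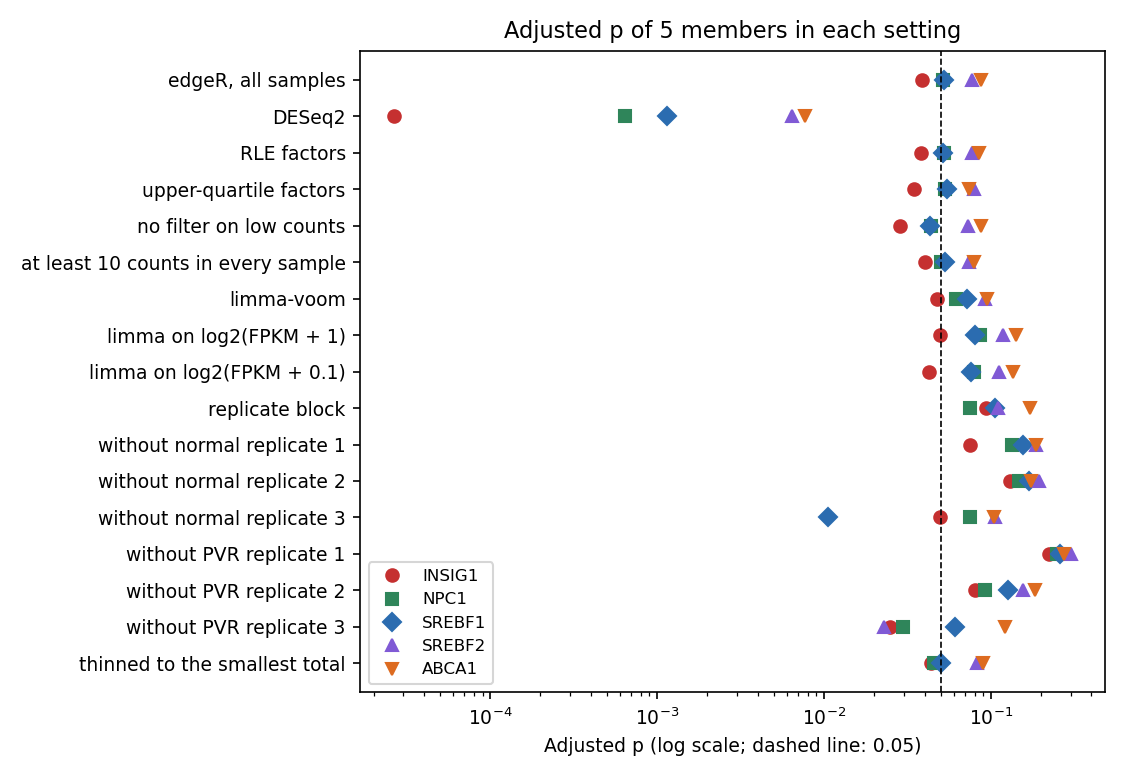
Adjusted p (x axis, log scale) of the 5 members with the smallest p in the edgeR test and in each of the 16 other settings (rows); the dashed line marks 0.05. INSIG1 lies left of the line in 11 of the 16 settings, NPC1 and SREBF1 in 4, SREBF2 in 2 and ABCA1 in 1.

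Of the members not found by symbol, 3 were matched by the number of their gene identifier in RefSeq's annotation of mOryCun1.1, which was used for names only. They stayed outside the counts. The row of CYP51A1, the lanosterol demethylase, was at 63.7, 75.8 and 77.3 CPM in the normal samples and at 48.1, 44.9 and 56.5 CPM in PVR. As in most of the other ring enzymes, all PVR samples were lower, with a log2 fold change of -0.54 ± 0.12 (SE, edgeR adjusted p = 0.0704). The row of IDI1, an isomerase of the mevalonate branch, had a log2 fold change of -0.11, and that of CYP46A1, a neuronal enzyme that oxidises cholesterol for removal, had -0.18. Both overlapped between the groups.

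Further genes of sterol and lipid handling were taken from 5 lists of 61 genes, of which 53 were found and 51 tested. Of the 51, 1 rose and 3 fell in PVR, against 1.09% higher and 0.615% lower among all genes, with a median log2 fold change of -0.13. With DESeq2, 3 were called higher and 6 lower, against 5.43% and 3.33% of all genes. CLU, a secreted apolipoprotein and chaperone, rose from 733.0, 799.6 and 805.03 CPM in the normal samples to 1686, 1766 and 1456 CPM in PVR. The groups lay far apart, with a log2 fold change of 1.07 ± 0.10 (SE, edgeR adjusted p = 0.00733), and 1 of 16 other settings lost the call, that without PVR replicate 1 (adjusted p = 0.0949).

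The genes that fell were all among the 10 tested targets of SREBP in fatty acid metabolism, whose fitted values were all below 0 with a median of -0.44. FADS1 and FADS2 encode the desaturases that make long polyunsaturated fatty acids. FADS1 was at 141.1, 166.0 and 129.1 CPM in the normal samples and at 73.6, 69.3 and 85.9 CPM in PVR, a log2 fold change of -0.93 ± 0.12 (SE, edgeR adjusted p = 0.0212). FADS2 was at 40.4, 51.8 and 47.6 CPM in normal and at 22.1, 17.6 and 24.2 CPM in PVR, a log2 fold change of -1.13 ± 0.15 (SE, edgeR adjusted p = 0.023). Both desaturases had the groups well apart. ME1, the malic enzyme that supplies NADPH, had a log2 fold change of -0.53 (edgeR adjusted p = 0.0465) and kept its call in 3 of the 16 other settings, losing it with any 1 sample left out (adjusted p from 0.0521 to 0.228). FADS1 kept it in 11, and was at 0.0609 without normal replicate 1, 0.0577 without normal replicate 2, 0.157 without PVR replicate 1 and 0.0586 without PVR replicate 2. FADS2 kept it in 13, and was at 0.0772 without normal replicate 2 and 0.153 without PVR replicate 1. Among the other lists, 6 further synthesis genes had a median of 0.00 with none past the test, and 7 further SREBP control genes had a median of -0.18, also with none past it. The 15 further genes of sterol transport, storage and oxidation had a median of -0.03 and none past the test. The 13 genes of lipoprotein handling, CLU among them, had a median of -0.07.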

How the data were processed

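The submitters' processing notes name fastp, HISAT2 and HTSeq. According to the study's methods, HISAT2 aligned the reads to OryCun2.0, and htseq-count assigned them to genes. Raw gene counts and FPKM values were both deposited by the authors. The annotation release and the strand setting are not given in the sources used here, so reads of overlapping or antisense genes cannot be told apart. The deposited FPKM values rest on the same counts, scaled to total counts (largest relative difference in implied gene length 4.24e-09). They carry no TMM adjustment. The TMM factors were 0.977, 0.953 and 0.998 in normal replicates 1 to 3, and 1.03, 1.04 and 1.01 in PVR replicates 1 to 3. Depth was 31904593 to 43035080 reads per sample, and limits counting error only, because PCR copies of a molecule cannot be recognised.

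Counts were analysed with edgeR 4.0.16 in R 4.3.3 (default filter, TMM factors, quasi-likelihood test with condition as the single term, Benjamini-Hochberg adjustment over 18697 genes). A run on simulated counts drew genes independently and gave 200 of them larger fold changes than any member had. It therefore does not bear on the calls made here. The standard error is the log2 fold change divided by the square root of F. Ratios of members were compared by exact permutation tests in SciPy 1.17.1. Alternatives used DESeq2 1.42.0, limma 3.58.1 on the counts and on log2(FPKM + 1) or log2(FPKM + 0.1), other factors and filters, a replicate block, thinning, and each sample left out. Thinning was chosen after seeing the data. Samples were grouped by their titles.

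The members and lists were chosen with earlier results of these data known. Every member found by symbol is named. Further sterol and lipid genes are named where the adjusted p was under 0.05. The marker genes GLUL, VIM, GPNMB, BEST1 and SLC6A20 were named after their values were seen. The 3 members matched by identifier, and the 4 ratios, were chosen after their values were seen. Genome positions and sequences were not used here.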

Additional observations from a re-analysis of the deposited data

How the results depend on the processing

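The number of genes past an adjusted p of 0.05 was 318 with edgeR on all samples, 1755 with DESeq2 and 92 with the replicate block, and between 22 and 650 with 1 sample left out. It was 98, 76 and 557 without normal replicates 1, 2 and 3, and 22, 113 and 650 without PVR replicates 1, 2 and 3. For the members the number was 1, against 7 with DESeq2, 3 with no filter on low counts, 3 with thinned counts, 0 with the replicate block, and 0 to 4 with 1 sample left out. For the further sterol and lipid genes it was 4, against 9 with DESeq2, 1 with the replicate block, and 0 to 4 with 1 sample left out. The cause of these shifts was not tested. The replicate numbers were not taken to pair the samples, as the correlations of same-numbered samples were -0.01, 0.07 and 0.04. Normal replicates 2 and 3 correlated best with their own number in PVR, and normal replicate 1 with PVR replicate 3. The block gave adjusted p-values of 0.0929 for INSIG1, 0.0719 for FADS1, 0.0662 for FADS2 and 0.112 for ME1 (edgeR). Of the 318 genes, 203 were higher and 115 lower. On the FPKM scale, which carries no TMM adjustment, 165 were higher and 55 lower with a pseudocount of 1, and 188 and 66 with 0.1. How much of this shift came from the missing adjustment was not tested. The median of the synthesis enzymes stayed between -0.52 and -0.29 with 1 sample left out, and that of all members between -0.38 and -0.19. In 29 of the 33 members the sign held in all 16 settings. MVK changed sign to 0.027 on log2(FPKM + 1), 0.032 on log2(FPKM + 0.1) and 0.010 with thinned counts. INSIG2 changed to 0.0028 with upper-quartile factors, and to 0.043 and 0.045 on the FPKM scales. LRP1 changed to 0.0085 and 0.0089 and ABCG1 to 0.034 and 0.037 on the same scales. With 1 sample left out, MVK ranged from -0.12 to 0.089, INSIG2 from -0.062 to 0.034 and ABCG1 from -0.16 to 0.030. Depth limits NR1H3 most, with 58 to 114 reads.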
